A study of Mus musculus with 16 samples.

Results

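Macrophage-like cells given the alarm cytokine interleukin-33 (IL-33) were compared directly with the same cells grown in the Th2 cytokines IL-4 and IL-13, interleukins of allergic and antiparasite responses, to ask which microRNAs (miRNAs) separate these states. The 8 arrays labelled Media + IL-33 (called Media_IL33, 4 arrays) and Th2 (4 arrays) were chosen by their titles from the 16 arrays of the series. All 1247 mouse miRNAs on the array were considered, and 231 were tested, those found on every array of 1 or more groups. The cells were RAW264.7, a transformed line of mouse macrophages, so no primary macrophage was measured. In Media_IL33, cells were kept 48 h in complete medium and then received 20 ng per ml of recombinant mouse IL-33 for 4 h. In Th2, cells were kept 48 h in medium with IL-4 and IL-13 at 10 ng per ml, were washed, and were collected at the same time without IL-33. Media had neither agent, and Th2_IL33 had the Th2 cytokines and then IL-33, with 4 arrays each. Each group has 1 array from each of 4 independent experiments, and replicate numbers name the experiments. The agent and the length of its action (4 h against 48 h) differ together between Media_IL33 and Th2, and cannot be told apart.

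A miRNA is a short RNA that guides the silencing complex to messenger RNAs, mainly by pairing of its seed, bases 2 to 8, with a target, and so lowers the target's output. IL-33 belongs to the interleukin-1 family and acts through the receptor ST2 and the adaptor MyD88 on the transcription factor NF-kB, which drives several inflammatory miRNAs. IL-4 and IL-13 act through the IL-4 receptor alpha chain and the transcription factor STAT6, and bring macrophages into the alternatively activated state, of which the mannose receptor Mrc1 is a known marker.

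The mature sequences below carry the main contrasts (RefSeq, GRCm38.p6, seed in capitals). Of the 231 tested miRNAs 170 matched a RefSeq name, and of the 28 that passed the test 23 did. The first set holds the 3 miRNAs of inflammatory signalling that were higher in Media_IL33, with miR-146b-5p, which has the seed of miR-146a-5p.
miR-155-5p: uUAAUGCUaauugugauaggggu
miR-146a-5p: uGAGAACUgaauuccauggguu
miR-146b-5p: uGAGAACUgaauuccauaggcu
miR-21a-3p: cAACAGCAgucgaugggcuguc
The next set holds miRNAs among those with the largest excess in Th2, encoded in Mrc1 or in Clcn5.
miR-511-3p: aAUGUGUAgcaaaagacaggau
miR-362-5p: aAUCCUUGgaaccuaggugugaau
miR-362-3p: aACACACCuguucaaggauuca
miR-500-3p: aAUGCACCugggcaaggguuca
The third set shows families whose members lay on opposite sides of the comparison.
miR-99a-5p: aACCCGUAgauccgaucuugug
miR-100-5p: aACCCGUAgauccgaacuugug
miR-99b-5p: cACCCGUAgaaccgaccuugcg
miR-125b-5p: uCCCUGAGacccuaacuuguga
miR-125a-5p: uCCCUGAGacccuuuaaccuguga
The last set is the miR-183 cluster, whose 3 members were all higher in Media_IL33.
miR-183-5p: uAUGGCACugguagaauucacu
miR-96-5p: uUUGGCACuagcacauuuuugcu
miR-182-5p: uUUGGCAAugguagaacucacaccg
The seed of miR-96-5p differs from that of miR-182-5p at 1 of its bases, and from that of miR-183-5p at 1. The 23 matched miRNAs that passed have 21 distinct seeds.

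Values are relative signals, the summed background-corrected brightness of a miRNA's probes divided by the 75th percentile of the same array, taken over 178 miRNAs that every array detected. Values under 0.0353 were set to that floor. Differences are on the log2 scale, Media_IL33 minus Th2, so a negative value means higher in Th2. The test was limma's moderated test with Benjamini-Hochberg adjustment over 231 miRNAs and a threshold of 0.05, and every adjusted p below comes from it. Where a group was not well above background on any array, the fold is given as "at least", with each dim array set at the weakest well-measured signal it holds.

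Of the 231 tested miRNAs 28 passed (12.1%), 8 higher in Media_IL33 (3.46%) and 20 higher in Th2 (8.66%). At an unadjusted p under 0.05, limma gave 54 (23.4%), 17 higher in Media_IL33 (7.36%) and 37 higher in Th2 (16%), and 119 of the 231 (51.5%) had a difference above 0. Of the 28, 27 did not overlap between the groups' arrays, against 60 of all 231 (26.0%). Each of the 28 lay on the same side in 4 of 4 experiments, which for those 27 follows from the lack of overlap. How many of all 231 lay on 1 side in 4 of 4 experiments was not counted. Differences of more than 1 on the log2 scale were found for 12 miRNAs higher in Th2 and for 4 higher in Media_IL33. The median difference of all tested miRNAs was 0.02, with quartiles of -0.22 and 0.24, and the median SE was 0.18. Replicate arrays correlated at 0.981 to 0.997 within Th2 and at 0.986 to 0.995 within Media_IL33, and arrays of different groups at 0.955 to 0.976, over all tested miRNAs.

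**Figure D1:**
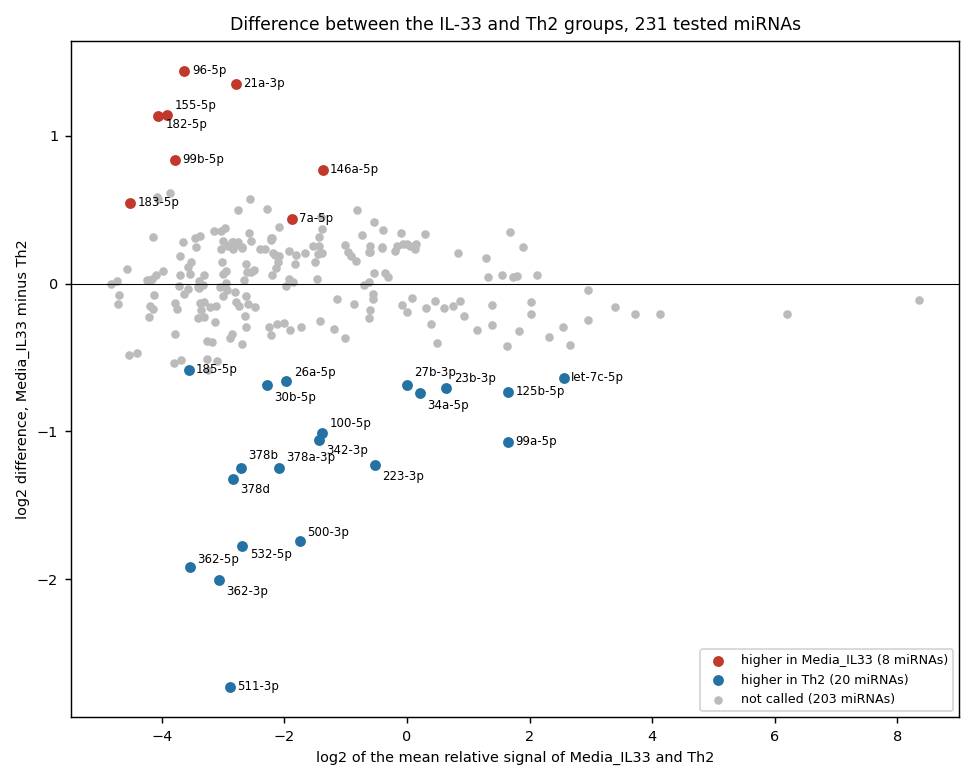
Log2 difference between Media_IL33 and Th2 (vertical axis) against the log2 of the mean relative signal of both groups (horizontal axis) for the 231 tested miRNAs, 1 point each. The 20 miRNAs higher in Th2 (blue) reach down to -2.73 for miR-511-3p, and the 8 higher in Media_IL33 (red) reach up to 1.44 for miR-96-5p.

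All 8 arrays carried the myeloid markers miR-142a-3p, miR-142a-5p and miR-223-3p, which were detected on 16 of 16 arrays. Of 15 markers of other cells 14 were detected on 0 of 16 arrays, and the muscle miRNA miR-206-3p was detected on 11 arrays, 4 of Media_IL33 and 2 of Th2, but well above background on 0. The summed relative signal of these 15 ranged from 0.0818 to 0.134 in Media_IL33 and from 0.0953 to 0.117 in Th2. More miRNAs were detected on the Media_IL33 arrays (237 to 251) than on the Th2 arrays (223 to 231), without overlap. The 75th percentile used for scaling was also higher on every Media_IL33 array (596 to 654) than on every Th2 array (513 to 554). The part of these differences in the results was not tested.

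Cells in Th2 were set apart most by miR-511-3p, which lies at chr2:14261051-14261072 (+) within Mrc1, the mannose receptor gene. Its relative signal was 0.235, 0.229, 0.220 and 0.251 on Th2 arrays 1 to 4 and at the floor of 0.0353 on all 4 Media_IL33 arrays. The groups were separate, and no Media_IL33 or Media array was well above background. The level was at least 4.50-fold higher in Th2 (log2 difference -2.73, SE 0.10, adjusted p 8.18e-12). That SE and p belong to the floored difference, not to the bound. The floored arrays have no spread (SD 0 in Media_IL33 and in Media), which lowers both. Media was also at the floor on all 4 arrays, and Th2_IL33 had 0.249 ± 0.0306 (SD, n = 4).

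A cluster of miRNAs within Clcn5, a chloride channel gene on chromosome X, formed the next group. Of 10 members on the array 6 were tested, 4 were higher in Th2 and 0 in Media_IL33 (5 and 0 at an unadjusted p under 0.05, against 37 and 17 of all 231), with a median of -1.76 against 0.02 over all tested miRNAs. miR-362-5p (chrX:7242019-7242042, -) had 0.144, 0.141, 0.127 and 0.130 on the Th2 arrays and 0.0353, 0.0353, 0.0369 and 0.0357 on the Media_IL33 arrays. It was at least 2.61-fold higher in Th2 (-1.92, SE 0.10, adjusted p 5.06e-10). With 2 of 4 arrays at the floor in Media_IL33 and in Media, miR-362-5p too has an SE that rests partly on floored values. Its partner on the same hairpin, miR-362-3p (chrX:7241984-7242005, -), had 0.186, 0.199, 0.188 and 0.189 in Th2 and 0.0402, 0.0536, 0.0561 and 0.0419 in Media_IL33, which makes it at least 3.57-fold higher (-2.0, SE 0.18, adjusted p 9.16e-07). Both arms of this hairpin therefore lay on the Th2 side, with every Th2 array far above every Media_IL33 array. miR-500-3p (chrX:7237695-7237716, -) was measured well above background on all 8 arrays, at 0.456, 0.492, 0.473 and 0.409 in Th2 and 0.125, 0.148, 0.158 and 0.119 in Media_IL33. Its excess in Th2 was 3.34-fold (-1.74, SE 0.18, adjusted p 4.61e-06). miR-532-5p had 0.240 ± 0.0138 in Th2 and 0.0707 ± 0.0117 in Media_IL33 (SD, n = 4 each), a 3.42-fold excess (-1.77, SE 0.18, adjusted p 3.43e-06). miR-532-3p was well above background on all 4 Th2 arrays (0.0633, 0.0497, 0.0534 and 0.0353), though the value of array 4 is the floor. It was well above background on 0 Media_IL33 arrays, all at the floor, and did not pass (-0.48, adjusted p 0.104). Without Th2 array 4 it passed (-0.65, adjusted p 0.0142). The remaining tested member was miR-188-5p, with 0.593 in Media_IL33 and 0.533 in Th2 (0.15, 95% interval -0.13 to 0.43, adjusted p 0.598). The cluster was thus not uniform: miR-188-5p was not separated while 4 of its neighbours were.

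The miR-378 family, reported in macrophages grown with IL-4, was higher in Th2 for 3 of 4 tested members, against 20 of all 231 (8.66%). With an unadjusted p under 0.05 in limma's test, 3 of the 4 and 37 of all 231 were higher in Th2. miR-378a-3p had 0.353, 0.376, 0.329 and 0.262 in Th2 against 0.121, 0.130, 0.150 and 0.152 in Media_IL33, a 2.37-fold excess (-1.25, SE 0.16, adjusted p 5.74e-05). miR-378d (-1.32, SE 0.17, adjusted p 4.81e-05) and miR-378b (-1.25, SE 0.19, adjusted p 0.000217) had like differences. Array 4 of Th2 was the lowest of its group for all 3, and still above every Media_IL33 array. The names share most of their sequence, and how far their probes read each other's RNA was not tested. miR-378a-5p, from the other arm of the miR-378a hairpin, varied from 0.195 to 0.970 between Th2 arrays and from 0.246 to 1.02 between Media_IL33 arrays (0.50, SE 0.93, adjusted p 0.826).

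Among miRNAs reported in alternatively activated macrophages, 9 of 14 on the array were tested, 6 were higher in Th2 and 0 in Media_IL33 (7 and 0 at an unadjusted p under 0.05, against 37 and 17 of all 231), and their median was -1.06. This list overlaps the families above and was drawn up with results of these arrays known, so its direction is no independent evidence. Of the 7, miR-146b-5p is also on the list of inflammatory miRNAs below. miR-223-3p, a miRNA of the myeloid lineage (chrX:96242884-96242905, +), had 1.11, 1.19, 1.02 and 0.598 in Th2 and 0.399, 0.439, 0.459 and 0.336 in Media_IL33. It was 2.34-fold higher in Th2 (-1.23, SE 0.24, adjusted p 0.00241). miR-342-3p, encoded in Evl (chr12:108658680-108658702, +), had 0.543, 0.575, 0.569 and 0.326 in Th2 against 0.229, 0.249, 0.258 and 0.208 in Media_IL33, a 2.09-fold excess (-1.06, SE 0.23, adjusted p 0.00493). For both miRNAs Th2 array 4 lay well below the other Th2 arrays but above all Media_IL33 arrays, and within slide 2, where this is the 1 Th2 array and is assumed to vary like the other groups, the differences were -0.51 (adjusted p 0.655) for miR-223-3p and -0.45 (adjusted p 0.656) for miR-342-3p. Outside this list, the p53-responsive miR-34a-5p was also higher in Th2, at 1.45 ± 0.0516 against 0.868 ± 0.0595 (SD, n = 4 each; -0.74, SE 0.17, adjusted p 0.00771). Its call ended with quantile normalization (-0.62, adjusted p 0.0653), in the authors' deposited table (-0.70, adjusted p 0.124) and with scaling over all 1247 miRNAs (-0.60, adjusted p 0.312).

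**Figure D2:**
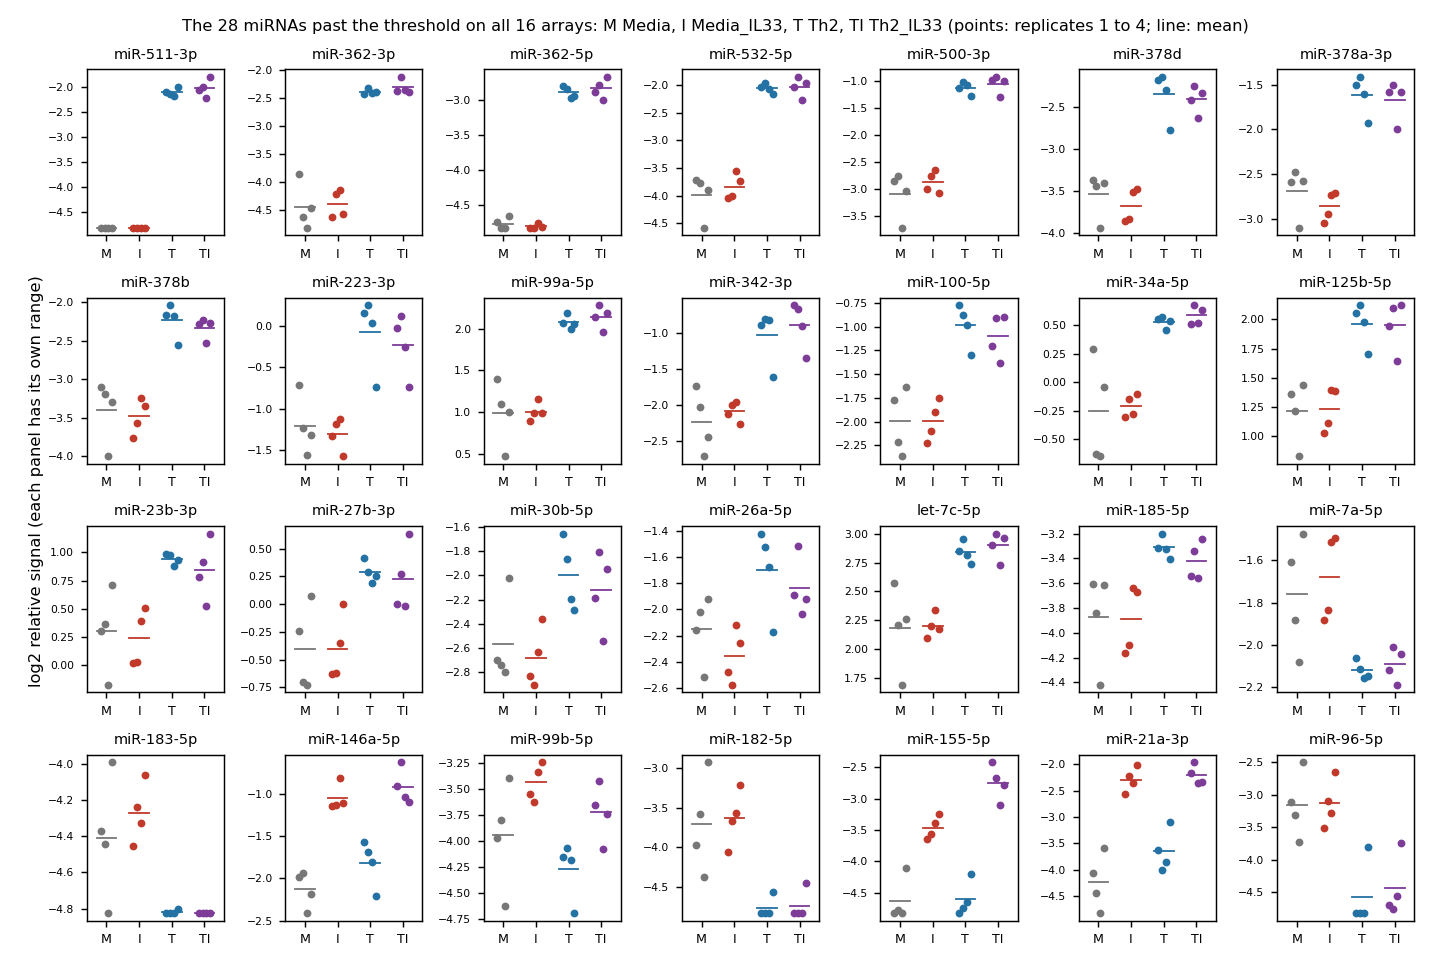
Log2 relative signal of the 28 miRNAs that passed the test, 1 panel each, on all 16 arrays; points are arrays of replicates 1 to 4, lines are group means, and each panel has its own vertical range. The Th2 and Media_IL33 arrays are separate in 27 panels and overlap for miR-26a-5p, and the Th2_IL33 arrays of miR-511-3p, miR-362-5p and miR-500-3p lie with the Th2 arrays.

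The paralogous clusters that encode miR-99 or miR-100, let-7 and miR-125 were split between the groups. miR-99a-5p and let-7c-5p lie next to each other on chromosome 16 (chr16:77598940-77598961 and chr16:77599672-77599693, both +), and a copy of miR-125b-5p follows (chr16:77646279-77646300, +). Another copy of let-7c-5p lies on chromosome 15 (chr15:85706616-85706637, +), and the signal of the mature miRNA cannot be assigned to either copy. miR-99a-5p had 4.20, 4.55, 3.98 and 4.18 in Th2 and 1.85, 1.98, 2.23 and 1.98 in Media_IL33, a 2.10-fold excess in Th2 (-1.07, SE 0.16, adjusted p 0.000175). let-7c-5p had 7.16 ± 0.449 in Th2 and 4.61 ± 0.332 in Media_IL33 (-0.64, SE 0.15, adjusted p 0.00895), and its call ended with quantile normalization (-0.28, adjusted p 0.145), in the authors' deposited table (-0.40, adjusted p 0.0895) and with scaling over all 1247 miRNAs (-0.49, adjusted p 0.315). For both miRNAs all Th2 arrays lay above all Media_IL33 arrays. miR-100-5p, on chromosome 9 (chr9:41531437-41531458, +) near the other copy of miR-125b-5p, had 0.584, 0.543, 0.507 and 0.408 against 0.215, 0.233, 0.268 and 0.296, a 2.01-fold excess in Th2 (-1.01, SE 0.18, adjusted p 0.00119). Of its 2 probes, the one well above background on all 8 arrays gave -1.10, and the other, well above background on 0 of them, gave 0.26. miR-125b-5p had 3.92 ± 0.475 in Th2 and 2.36 ± 0.308 in Media_IL33 (-0.73, SE 0.16, adjusted p 0.00493).

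Of 5 tested members of the cluster on chromosome 17, within Spaca6, 1 passed, on the other side, against 28 of all 231 either way. miR-99b-5p (chr17:17830194-17830215, +) had 0.0855, 0.0811, 0.0992 and 0.106 in Media_IL33 and 0.0563, 0.0596, 0.0552 and 0.0386 in Th2. It was at least 1.78-fold higher in Media_IL33 (0.84, SE 0.23, adjusted p 0.0227), and the call ended without Media_IL33 array 3 (0.80, adjusted p 0.0628), Media_IL33 array 4 (0.77, adjusted p 0.0682) or Th2 array 4 (0.70, adjusted p 0.0727). Its neighbour miR-125a-5p (chr17:17830817-17830840, +) had 0.173, 0.20, 0.214 and 0.221 in Media_IL33 and 0.131, 0.142, 0.134 and 0.135 in Th2. The groups did not overlap, but the difference missed the threshold (0.57, SE 0.18, 95% interval 0.19 to 0.96, adjusted p 0.0505). With the experiments as a block it passed (0.57, adjusted p 0.0465). let-7e-5p had 0.438 ± 0.0406 in Media_IL33 and 0.319 ± 0.00577 in Th2, again without overlap, and did not pass (0.45, SE 0.19, adjusted p 0.153), but it did with the experiments as a block in a fit of both groups alone (0.45, adjusted p 0.0267). The other arms miR-125a-3p (0.35, adjusted p 0.314) and miR-99b-3p (-0.12, adjusted p 0.805) did not pass.

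The split therefore ran within seed families, though on the Media_IL33 side it rests on the call of miR-99b-5p alone. miR-99a-5p and miR-99b-5p share the seed and differ at 4 of 22 bases, while miR-99a-5p and miR-100-5p, both higher in Th2, differ at 1 of 22. miR-125b-5p and miR-125a-5p share the seed and differ at 7 of the 22 bases compared from the 5' end. let-7c-5p and let-7e-5p differ at 2 of 22. The list of other let-7 miRNAs, outside these clusters, gave 0 calls among 7 tested (1 at an unadjusted p under 0.05), with differences of -0.36 to 0.04. let-7k, which is not on that list, did not pass either (-0.02, adjusted p 0.969). Over all 231 miRNAs 28 were called (54 at an unadjusted p under 0.05). Of all 13 members of the 3 clusters on the array 9 were tested, and their median was -0.12. Of these 9, 4 were higher in Th2 and 1 in Media_IL33, against 20 and 8 of all 231. With an unadjusted p under 0.05 in limma's test these were 4 and 3, against 37 and 17 of all 231. The difference between paralogs was not itself tested, and neither was binding of 1 paralog to another's probe; 0 of the 28 miRNAs share a probe sequence with another miRNA.

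**Figure D3:**
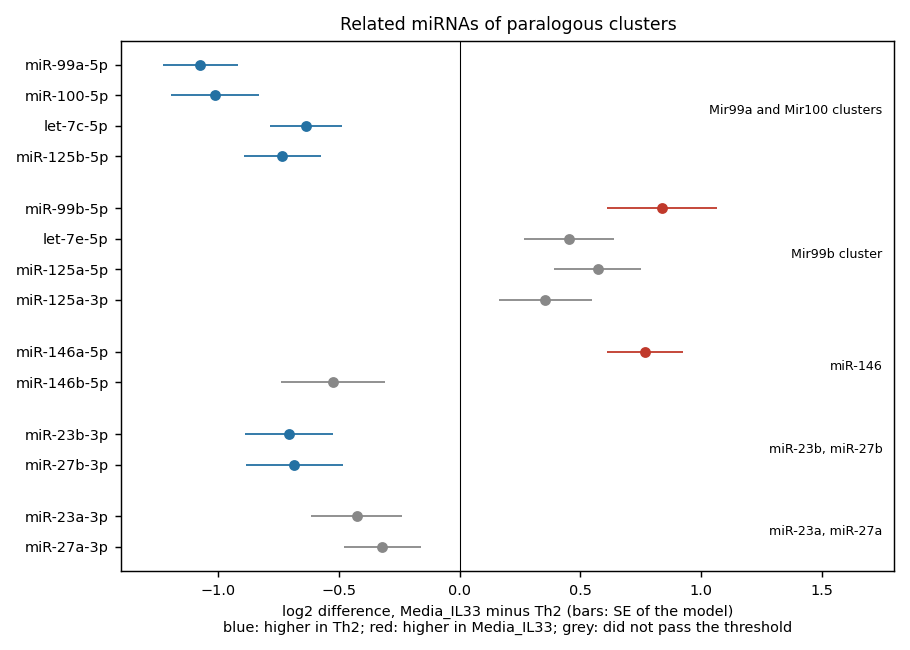
Log2 difference between Media_IL33 and Th2 with the SE of the model for related miRNAs, grouped by cluster or family. miR-99a-5p, miR-100-5p, let-7c-5p and miR-125b-5p (-1.07 to -0.64) lie on the Th2 side, and miR-99b-5p, let-7e-5p and miR-125a-5p (0.45 to 0.84) on the Media_IL33 side, where miR-99b-5p alone passed.

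Of the 8 miRNAs higher in Media_IL33, 3 are on a list of inflammatory miRNAs that was drawn up with results of these arrays known. Of 18 miRNAs listed as induced by Toll-like receptor, IL-1 family or NF-kB signals 10 were tested, 3 were higher in Media_IL33 and 0 in Th2 (4 and 1 at an unadjusted p under 0.05, against 17 and 37 of all 231), and the median was 0.27. miR-155-5p, an amplifier of inflammatory signalling (chr16:84714143-84714165, +), had 0.0798, 0.0850, 0.0952 and 0.105 in Media_IL33 and 0.0353, 0.0375, 0.0397 and 0.0545 in Th2. All 4 Media_IL33 arrays were well above background and no Th2 array was, so the level was at least 1.70-fold higher (1.14, SE 0.19, adjusted p 0.000749). miR-146a-5p, a feedback inhibitor of the same pathway that targets TRAF6 and IRAK1 (chr11:43374435-43374456, -), had 0.452, 0.454, 0.569 and 0.461 in Media_IL33 and 0.335, 0.309, 0.287 and 0.216 in Th2. The groups were separate, with 1.70-fold more in Media_IL33 (0.77, SE 0.16, adjusted p 0.00385), and the call ended in the authors' deposited table (0.68, adjusted p 0.139). miR-21a-3p, from the hairpin within Vmp1 (chr11:86584082-86584103, -), had 0.168, 0.213, 0.196 and 0.246 in Media_IL33 and 0.0811, 0.0622, 0.0693 and 0.118 in Th2, of which array 4 alone was well above background. With the 3 dim Th2 arrays near background, it was 2.55-fold higher in Media_IL33 as measured (1.35, SE 0.24, adjusted p 0.00119).

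Other miRNAs of that list did not pass, among them miR-146b-5p, which is also on the list of alternatively activated macrophages. miR-21a-5p, the main arm of the miR-21a hairpin, had 13.5, 15.1, 16.4 and 19.8 in Media_IL33 and 18, 16.2, 16 and 24.7 in Th2, which overlap (-0.20, SE 0.23, 95% interval -0.69 to 0.29, adjusted p 0.704). The arms of this hairpin thus gave 1.35 and -0.20, and the difference between the arms was not tested. miR-146b-5p, with the seed of miR-146a-5p and 2 of 22 bases different, had 0.0972, 0.102, 0.106 and 0.0720 in Media_IL33 and 0.179, 0.147, 0.126 and 0.0978 in Th2, with overlap (-0.52, SE 0.22, 95% interval -0.98 to -0.06, adjusted p 0.153), but it passed with the experiments as a block in a fit of both groups alone (-0.52, adjusted p 0.0417). miR-222-5p (0.38, adjusted p 0.25), miR-222-3p (0.07, adjusted p 0.854) and miR-221-3p (0.17, adjusted p 0.704) did not pass, nor did miR-142a-3p, whose interval was -0.24 to 0.39.

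The miR-183 cluster, a polycistronic transcript best known from sensory cells, was higher in Media_IL33 for 3 of 3 tested members of 6 on the array. Of all 231 tested miRNAs, 8 were higher in Media_IL33 (3.46%). With an unadjusted p under 0.05 in limma's test, 3 of the 3 and 17 of all 231 were higher there. miR-96-5p (chr6:30169506-30169528, -) had 0.0878, 0.117, 0.102 and 0.160 in Media_IL33, while Th2 arrays 1 to 3 lay at 0.0353 and array 4 at 0.0716. The difference was 1.44 (SE 0.31, adjusted p 0.00493), or 1.99-fold with the dim arrays set at their weakest well-measured signal. miR-182-5p (chr6:30165962-30165986, -) had 0.0602, 0.0787, 0.0843 and 0.107 in Media_IL33, and Th2 held 3 arrays at the floor and array 4 at 0.0424, so it was at least 1.61-fold higher (1.13, SE 0.25, adjusted p 0.00493; with the floor at the 5th percentile 0.69, adjusted p 0.0807). miR-183-5p (chr6:30169711-30169732, -) was barely above background, with 0.0521 ± 0.00604 in Media_IL33, where 1 of 4 arrays was well above it, and 0.0354 ± 0.000312 in Th2 (at least 1.06-fold, 0.55, SE 0.14, adjusted p 0.0173). Without Media_IL33 array 2 (0.54, adjusted p 0.0532) or array 4 (0.48, adjusted p 0.0636) its call ended, as it did with the floor at the 5th percentile (0.08, adjusted p 0.597).

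A set of smaller differences passed narrowly or lost the call when 1 array was left out. miR-23b-3p and miR-27b-3p, the latter encoded within Aopep, had 1.92 ± 0.0631 and 1.22 ± 0.0815 in Th2 against 1.19 ± 0.208 and 0.771 ± 0.167 in Media_IL33 (SD, n = 4; -0.70, adjusted p 0.0173, and -0.68, adjusted p 0.0367). Their paralogs miR-23a-3p (-0.42, adjusted p 0.186) and miR-27a-3p (-0.32, adjusted p 0.248) were on the same side without passing. miR-23b-3p lost its call without Media_IL33 array 1 (-0.63, adjusted p 0.0591) or array 2 (-0.64, adjusted p 0.0649). miR-27b-3p lost it without any 1 of Media_IL33 arrays 1 to 3 (-0.61, -0.61 and -0.70, adjusted p 0.115, 0.123 and 0.0666) or Th2 arrays 1 to 4 (-0.64, -0.68, -0.72 and -0.69, adjusted p 0.107, 0.0841, 0.0611 and 0.0621), and with the slide as a block (-0.65, adjusted p 0.0689).

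Other narrow calls were those of miR-30b-5p, miR-26a-5p and miR-185-5p. miR-30b-5p had 0.318, 0.275, 0.218 and 0.205 in Th2 and 0.140, 0.133, 0.161 and 0.195 in Media_IL33 (-0.68, SE 0.21, adjusted p 0.0474). It did not pass with the experiments as a block (-0.68, adjusted p 0.0528), nor without Media_IL33 arrays 1, 2 or 3 (-0.63, -0.61 and -0.70, adjusted p 0.130, 0.156 and 0.0861) or Th2 arrays 1, 2 or 3 (-0.57, -0.64 and -0.75, adjusted p 0.170, 0.132 and 0.0611). miR-26a-5p, the one that overlapped between the groups, had 0.373, 0.347, 0.313 and 0.222 in Th2 and 0.179, 0.168, 0.231 and 0.210 in Media_IL33 (-0.66, SE 0.18, adjusted p 0.0263). Its call ended with the experiments as a block in a fit of both groups alone (adjusted p 0.0649), and without Media_IL33 array 1 or 2 (-0.61 and -0.58, adjusted p 0.0779 and 0.103) or Th2 array 1, 2 or 3 (-0.56, -0.60 and -0.65, adjusted p 0.105, 0.0905 and 0.0638). miR-185-5p had 0.101 ± 0.0058 in Th2 and 0.0683 ± 0.013 in Media_IL33 (-0.58, SE 0.18, adjusted p 0.046). With the experiments as a block its adjusted p was 0.0586, and it was lost without Media_IL33 array 1 or 2 (-0.49 and -0.51, adjusted p 0.150 and 0.154) or any 1 Th2 array (-0.61 to -0.55, adjusted p 0.0621 to 0.124). miR-26a-5p and miR-185-5p are named after their values were seen, to complete the 28.

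On the Media_IL33 side, miR-7a-5p had 0.271, 0.280, 0.350 and 0.356 in Media_IL33 and 0.239, 0.231, 0.224 and 0.226 in Th2. The arrays were separate, but the 1.36-fold difference was the smallest that passed (0.44, SE 0.14, adjusted p 0.0474). It missed the threshold with the experiments as a block (0.44, adjusted p 0.0586), without Media_IL33 array 2, 3 or 4 (0.49, 0.38 and 0.38, adjusted p 0.0558, 0.146 and 0.149), and without any 1 Th2 array (0.43 to 0.46, adjusted p 0.0862 to 0.119).

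Both groups were next set beside untreated Media. These comparisons share arrays with the direct one and with each other, so their values are given side by side only. Against Media, 4 of 231 miRNAs passed in Media_IL33 (1.73%) and 22 in Th2 (9.52%). For the 20 miRNAs higher in Th2, Media_IL33 differed from Media by -0.20 to 0.22 and 0 passed in limma's test (0 at an unadjusted p under 0.05), while Th2 lay 0.45 to 2.73 above Media and 17 passed. miR-511-3p was at the floor on all Media and Media_IL33 arrays, so the floor sets its difference of 0 between these groups. At a high signal, miR-99a-5p had 2.04 ± 0.513 in Media, 2.01 ± 0.156 in Media_IL33 and 4.23 ± 0.239 in Th2.

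The 8 miRNAs higher in Media_IL33 were of different kinds. miR-21a-3p, miR-155-5p and miR-146a-5p rose over Media in Media_IL33 (1.93, 1.17 and 1.08, adjusted p 0.000252, 0.0019 and 0.000804), while Th2 differed from Media by 0.58, 0.03 and 0.31 and did not pass. miR-96-5p and miR-182-5p differed from Media by 0.03 and 0.08 in Media_IL33 and fell in Th2 (-1.41 and -1.05, adjusted p 0.00573 and 0.00968). For miR-96-5p, Media had 0.117 ± 0.0431, close to 0.117 ± 0.0312 in Media_IL33. miR-99b-5p lay 0.51 above Media in Media_IL33 and 0.33 below it in Th2, and neither step passed (adjusted p 0.779 and 0.433). In all, 6 of the 28 passed in neither comparison with Media: miR-30b-5p, miR-26a-5p, miR-185-5p, miR-7a-5p, miR-183-5p and miR-99b-5p. miR-146b-5p was the reverse: it rose over Media in both groups (0.95 in Media_IL33, adjusted p 0.0319, and 1.47 in Th2, adjusted p 0.000184) and did not pass between them.

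**Figure D4:**
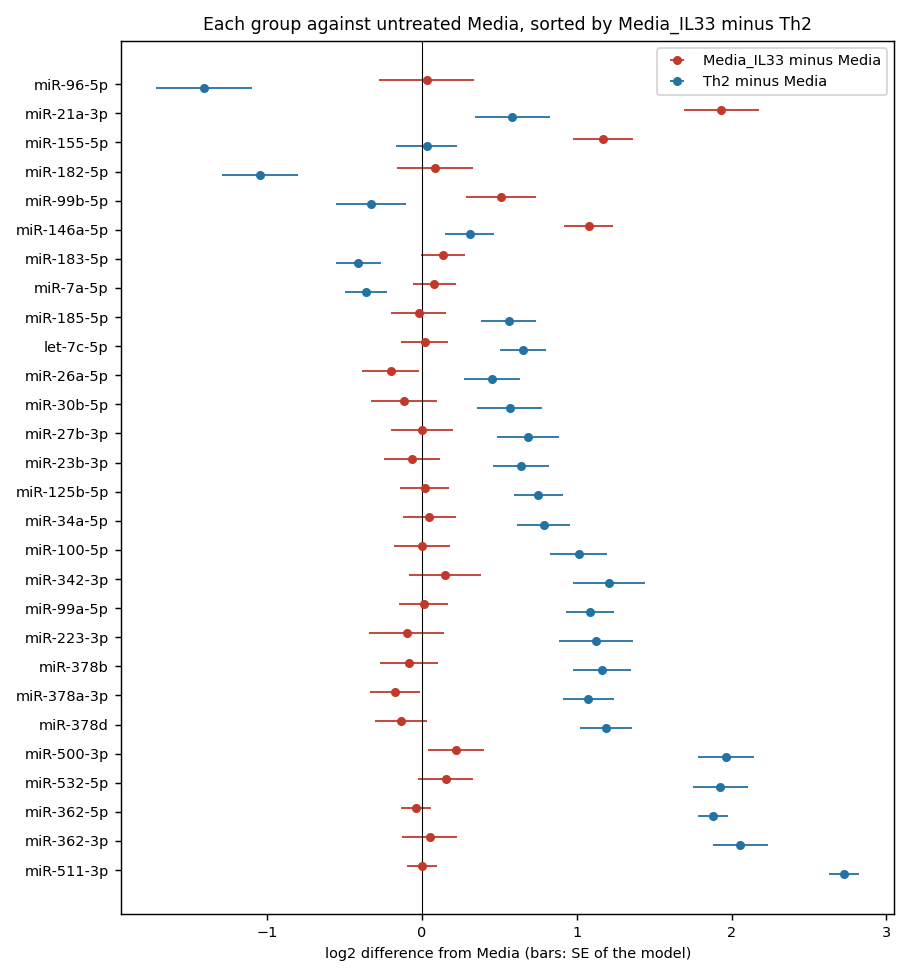
Log2 difference from Media of Media_IL33 (red) and Th2 (blue), with the SE of the model, for the 28 miRNAs, sorted by Media_IL33 minus Th2. For the 20 miRNAs higher in Th2 the red points lie between -0.20 and 0.22; miR-21a-3p, miR-155-5p and miR-146a-5p have red points at 1.08 or above; miR-96-5p and miR-182-5p have blue points at -1.41 and -1.05.

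Cells that had both treatments held the 20 Th2-side miRNAs near their Th2 level. Th2_IL33 differed from Th2 in 4 of 231 miRNAs (1.73%) and from Media_IL33 in 22 (9.52%). For the 20 miRNAs higher in Th2, Th2_IL33 lay within -0.15 to 0.15 of Th2 and 0 passed (0 at an unadjusted p under 0.05), and it lay 0.47 to 2.81 above Media_IL33, where 16 passed. miR-155-5p, miR-21a-3p and miR-146a-5p were above Th2 in Th2_IL33 (1.86, 1.43 and 0.90, adjusted p 2.38e-05, 0.00366 and 0.00366). miR-155-5p had 0.187, 0.156, 0.116 and 0.146 in Th2_IL33, above all Media_IL33 arrays (0.72, adjusted p 0.0246). miR-21a-3p and miR-146a-5p differed by 0.08 and 0.13 between Th2_IL33 and Media_IL33 (adjusted p 0.802 and 0.588). miR-96-5p and miR-182-5p stayed at the low level of Th2 in Th2_IL33 (0.13 and 0.03 from Th2, adjusted p 1 for both) and were lower there than in Media_IL33 (-1.31 and -1.10, adjusted p 0.00897 and 0.00687).

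The size of the differences varied with the experiment. For the 20 miRNAs higher in Th2 the median difference was -1.34 in experiment 1, -1.22 in experiment 2, -0.99 in experiment 3 and -0.68 in experiment 4. The 8 miRNAs higher in Media_IL33 ran from 0.69 in experiment 1 and 0.87 in experiment 2 to 1.12 in experiment 3 and 1.08 in experiment 4. Over all 231 miRNAs the medians were -0.23, -0.03, 0.05 and 0.06. miR-511-3p gave -2.74, -2.70, -2.64 and -2.83, but its Media_IL33 arrays are all at the floor, so these values vary with the Th2 arrays alone. Of miRNAs measured in both groups, miR-26a-5p went from -1.05 in experiments 1 and 2 to -0.44 and -0.08, and miR-100-5p from -1.44 to -0.46. The arrays lay on 2 slides: in experiments 1 and 2 Media_IL33 was on slide 2 and Th2 on slide 1, in experiment 3 both were on slide 1, and in experiment 4 Media_IL33 was on slide 1 and Th2 on slide 2. Experiment and slide are therefore tied. With the slide as a block, 17 of the 20 and 7 of the 8 still passed, with differences of -2.74 to -0.55 and 0.46 to 1.39. Within slide 1 alone all 20 and all 8 kept their sign, and 11 and 3 passed. Within slide 2, where Th2 has 1 array, the differences were -2.83 to -0.35 and 0.29 to 1.11. For the 27 miRNAs without overlap between the groups, arrays of 1 slide could not give another sign.

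**Figure D5:**
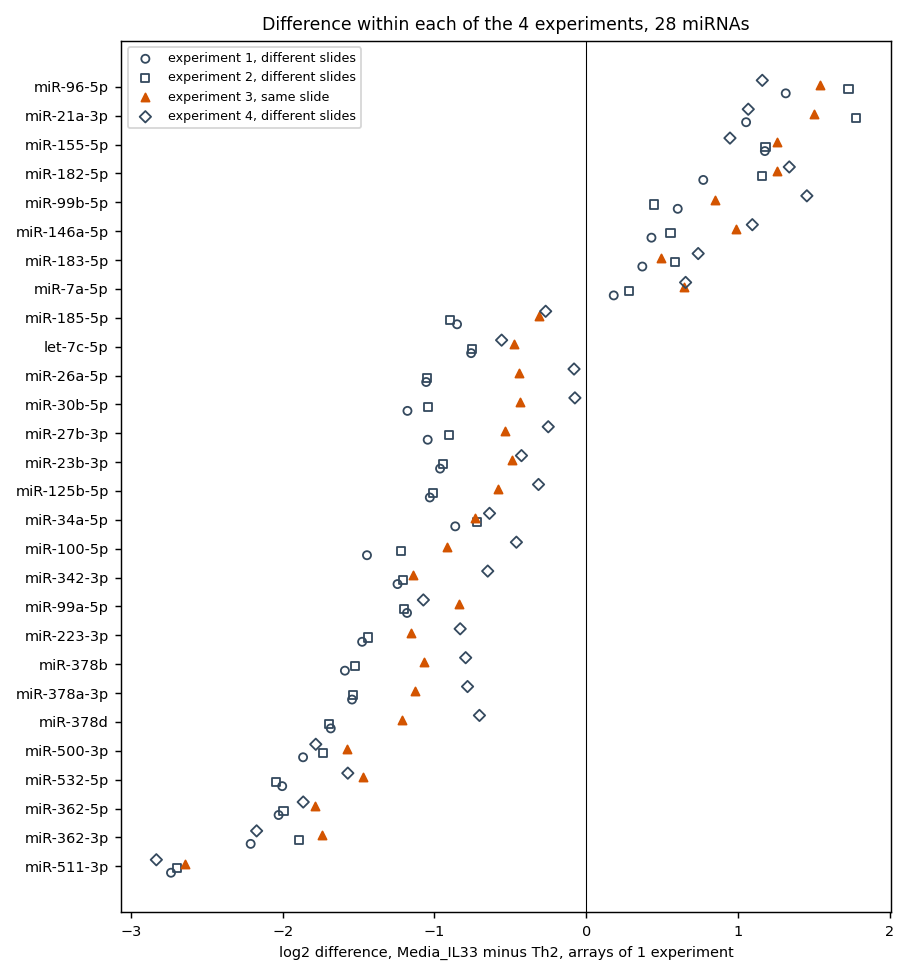
Log2 difference between the Media_IL33 and Th2 arrays of the same experiment for the 28 miRNAs, 1 marker per experiment; filled orange marks experiment 3, whose arrays share a slide. All 112 values lie on the side of the pooled difference, and for miR-26a-5p they spread from -1.05 to -0.08. For the 27 miRNAs without overlap between the groups' arrays, the side follows from that.

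The split between the groups depended on the scaling. Against 8 higher in Media_IL33 and 20 in Th2, quantile normalization gave 10 and 15, and normexp background correction with an offset of 50 gave 2 and 24. With normexp the 20 miRNAs higher in Th2 all passed, with differences compressed to -0.90 to -0.23, and of the 8 higher in Media_IL33 miR-146a-5p alone passed, with the 8 at 0.01 to 0.43. Scaling to the percentile over all 1247 miRNAs shifted the median of all tested miRNAs by 0.14 towards Media_IL33 and left 9 and 5 calls of the 20 and the 8; miR-100-5p, miR-125b-5p, miR-223-3p and miR-342-3p were among those lost (-1.08 to -0.59, adjusted p 0.062 to 0.248). Of the 20 and the 8, 14 and 4 passed in the authors' deposited table. In each of these settings all 28 kept their direction.

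Several families common to many cells were tested beside these, against 12.1% called, 23.4% at an unadjusted p under 0.05 and 51.5% above 0 over all 231. The miR-17-92 cluster and its paralogs gave 0 calls among 11 tested, with a median of 0.25 and 8 of 11 above 0 (4 at an unadjusted p under 0.05), led by miR-18a-5p (0.42, adjusted p 0.0998; with the experiments as a block in a fit of both groups alone 0.0482). The medians of miR-29 (0 of 3 called, -0.31), of miR-15 and miR-16 (0 of 4, -0.17) and of miR-30 (1 of 5, -0.34) were below 0, and that of miR-221 and miR-222 (0 of 3, 0.17) above it. At an unadjusted p under 0.05, limma gave 1, 1, 3 and 0 of them. The many miRNAs named miR-297, miR-466, miR-467 and miR-669, many of them encoded in Sfmbt2, gave 0 calls among 32 tested of 61, with 1 at an unadjusted p under 0.05, although 32 of 32 lay above 0, with a median of 0.25. Across experiments their medians were 0.44, 0.32, 0.18 and 0.04. Their related sequences make these names poor as separate counts. Of the stress-responsive miRNAs, miR-210-3p was not separated (0.37, 95% interval -0.18 to 0.92, adjusted p 0.456).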

How the data were processed

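Total RNA of RAW264.7 cells was labelled with Cy3 and hybridised to 16 single-colour Agilent mouse miRNA arrays, 4 per group. The scanner files the authors deposited give each spot's intensity after background subtraction, not normalized from array to array (Agilent Feature Extraction 10.7.3.1, per the file headers). A deposited table of probe intensities was made with Partek 6.6 and RMA, per the submitters' processing notes. It is not log transformed, has the same median (0.428) and maximum (114686) in each column, ranks probes as the scanner files do (Spearman correlation 0.91 to 0.99), and was used as an alternative.

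From 49880 miRNA spots per array, control spots and the outlier spots marked by the scanner software (2040 to 3929) were left out; 0 were saturated. Spots of a probe were averaged, the 1 to 4 probes of a miRNA were summed, and the sums were scaled by the array's 75th percentile, over 178 miRNAs that every array detected. Values were floored at 0.0353, the 1st percentile of the detected signals (log2 of -4.82), and log2 transformed. limma 3.58.1 (R 4.3.3) was fitted with 1 mean per group over the 16 arrays, leaving 12 residual degrees of freedom, and p-values were adjusted by Benjamini-Hochberg over 231 miRNAs. The fit was tested on simulated data. Precision is limited by how many arrays there are.

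The labels tie replicate numbers 1 to 4 to 4 experiments, so numbers pair the arrays. Deviations from the group means of same-numbered Media_IL33 and Th2 arrays correlated at 0.46, -0.35, 0.71 and 0.12. The highest correlation of each Media_IL33 array with a Th2 array of another number was 0.18, 0.51, 0.06 and 0.30. In experiments 2 and 4 it exceeded that of the same-numbered arrays. Fits with the experiment, the slide or both as a block, other background corrections, scalings, floors and filters, and fits without each array were alternatives. Named miRNAs were the 12 with the largest difference each way among those that passed, 10 miRNAs known from macrophage activation, and up to 4 members of each list. The comparison, the members and the lists were chosen with earlier results of these data known. Gene names and positions come from RefSeq (GRCm38.p6).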

Additional observations from a re-analysis of the deposited data

Results flagged for a closer look

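Within groups of 4 arrays, 8 of 124 sets of values tested (the named miRNAs in Media_IL33 and in Th2) held an array set apart from the other 3 by Dixon's criterion, which chance alone passes for about 1 in 20 groups. Th2 array 4 was high for miR-96-5p (0.0716), miR-182-5p (0.0424) and miR-183-5p (0.0359), where the other Th2 arrays lay at or next to the floor of 0.0353. These 3 gaps are measured from the floor, and gaps without it were not tested. Th2 array 4 was low for miR-342-3p (0.326, with the next array at 0.543). It is the only Th2 array on slide 2, and the part of the slide was not tested. Media_IL33 array 3 was high for miR-146a-5p, at 0.569. Th2 array 2 was high for miR-92a-3p (1.22), Th2 array 3 was low for miR-15a-5p (0.640), and Media_IL33 array 1 was low for miR-29b-3p (0.499).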

How the results depend on the processing

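All 28 miRNAs kept their direction under each of 24 alternatives (672 of 672 values), and 541 of these values passed. The 24 include slide 2 alone, where Th2 has 1 array, assumed to vary like the other groups. For the 27 miRNAs without overlap between the groups, leaving out an array or a slide could not change the sign. Fits that changed only the filter, the groups fitted or the replicate block gave the same differences. The kept direction in these settings is therefore no added evidence. miR-511-3p, miR-362-3p, miR-362-5p, miR-500-3p, miR-532-5p, miR-378b, miR-378d and miR-99a-5p passed in all 24. The count of 28 went to 14 when arrays were scaled over all 1247 miRNAs, 14 within slide 1, 8 within slide 2, 53 when both groups were fitted alone and 109 with array weights. Leaving out 1 array gave 21 to 27. With the replicate block the count was 27 (25 of them among the 28), with the replicate block in a fit of both groups alone 34 (25), with slide and replicate block 30 (27), and with the slide block 24 (24). The replicate block ended the calls of miR-30b-5p, miR-185-5p and miR-7a-5p and, with both groups alone, of miR-26a-5p, miR-30b-5p and miR-7a-5p; it ended no other call. It added those of miR-125a-5p and miR-714 and, with both groups alone, also of let-7e-5p, miR-146b-5p, miR-18a-5p, miR-22-3p, miR-324-5p, miR-181d-5p and miR-1188-3p. The authors' deposited table gave 19, and without the filter on detection 20 of 1247 passed, where most variances were 0, which makes this fit unreliable. Without Media arrays 1 and 3 and Th2_IL33 array 2, which correlate least with their groups, 41 passed, all 28 among them; this was chosen after seeing the data. Where calls were lost and no cause is named, the cause was not tested. Signals near background limit miR-155-5p, miR-21a-3p, miR-96-5p, miR-182-5p, miR-183-5p and miR-99b-5p, whose folds are bounds or rest on few arrays well above it. The same limit holds for miR-511-3p, miR-362-5p and miR-362-3p, which were well above background on no Media_IL33 array, so their folds are bounds.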

Other observations

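Outside the lists, miR-22-3p and miR-324-5p came close to the threshold; both were chosen after their values were seen. miR-324-5p had 0.121, 0.140, 0.128 and 0.101 in Th2 and 0.0750, 0.0876, 0.0982 and 0.0822 in Media_IL33, without overlap (log2 difference -0.51, limma adjusted p 0.0505), and passed in 8 of the alternatives. miR-22-3p had 1.64, 1.67, 1.40 and 1.70 in Th2 and 1.21, 1.22, 1.24 and 1.17 in Media_IL33, again without overlap, but did not pass (-0.40, limma adjusted p 0.153). With the experiments as a block in a fit of both groups alone, both passed (limma adjusted p 0.0275 and 0.0482). It was above Media in Th2 (0.68, limma adjusted p 0.0105), and in Th2_IL33 it reached 1.97 ± 0.298 (SD, n = 4). In all, 33 miRNAs did not overlap between Media_IL33 and Th2 and yet missed the threshold.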
